A study of Mus musculus with 14 samples.

Results

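Esrrb, Nr5a2, Tfcp2l1 and Tbx3 encode transcription factors of the naive pluripotent state of mouse embryonic stem (mES) cells, and the ChIP-seq peaks around these 4 genes were examined. A peak was counted for a gene if its centre lay in the gene body or within 100 kb of either end, with gene bodies from GENCODE vM1 on the mm9 build. Of the 24416 peaks in 8 peak lists, 56 met this rule, and they formed 25 places, a place being a run of peaks whose centres lay within 100 bp of the next one. Esrrb held 20 of the 56 peaks, Tbx3 22, Tfcp2l1 8 and Nr5a2 6.

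The lists came from FLAG ChIP in 3 mES clones, A6, B8 and C4, which carry a Sim2-FLAG-IRES-Venus transgene under the hCMV*-1 promoter in a ROSA-TET system, and in the EB3 (EBRTcH3) parental line, which has no Sim2-FLAG. All cells were cultured on gelatin with serum and LIF, and tetracycline was removed for 26 h, which turns the transgene on. ChIP against NANOG, OCT4, MED1 and MED12 was analysed in clone A6 only, so these 4 factors were measured in cells that overexpress SIM2, with 1 library each and no replicate. The 3 clones, 1 culture each, are the only replicates, and each is 1 clonal line. The lists held 2387 peaks in A6, 2137 in B8, 631 in C4, 81 in EB3, 14815 for NANOG, 2532 for OCT4, 762 for MED1 and 1071 for MED12.

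Naive pluripotency is held by a network of transcription factors that bind each other's genes, and the members of this network are lost in large part when the epiblast becomes primed. ESRRB and NR5A2 are orphan nuclear receptors that bind DNA as monomers, TFCP2L1 belongs to the CP2 branch of the grainyhead family and acts downstream of LIF and STAT3, and TBX3 is a T-box factor that links PI3K and MAPK signalling to this network. NANOG and OCT4 are core pluripotency factors, MED1 and MED12 are subunits of Mediator, the complex that bridges enhancers and RNA polymerase II, and SIM2 is a bHLH-PAS factor that binds DNA with ARNT.

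A SIM2 site was a place with peaks in at least 2 clones and no EB3 peak centre within 100 bp. The 8 windows of 200 bases below are those of the 6 SIM2 sites at the 4 genes and of the place with the most factors at Nr5a2 and at Tfcp2l1, where no SIM2 site was found. They are named by gene and distance from its 5′-most transcription start site (TSS) along the strand of the gene, and are the plus strand of mm9, 5′ to 3′. Capitals mark exact matches, on either strand, to the motifs described further on, with any free bases of a motif included.
Esrrb +94.1 kb, chr12:87796081-87796280: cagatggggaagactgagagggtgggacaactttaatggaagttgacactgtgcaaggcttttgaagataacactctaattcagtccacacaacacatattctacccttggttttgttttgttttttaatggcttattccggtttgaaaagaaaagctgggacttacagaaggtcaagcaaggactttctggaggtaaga
Esrrb +140.7 kb, chr12:87842649-87842848: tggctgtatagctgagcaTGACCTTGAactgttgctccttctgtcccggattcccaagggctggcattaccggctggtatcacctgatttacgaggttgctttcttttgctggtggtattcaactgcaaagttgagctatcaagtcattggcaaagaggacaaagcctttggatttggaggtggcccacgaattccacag
Esrrb +143.4 kb, chr12:87845364-87845563: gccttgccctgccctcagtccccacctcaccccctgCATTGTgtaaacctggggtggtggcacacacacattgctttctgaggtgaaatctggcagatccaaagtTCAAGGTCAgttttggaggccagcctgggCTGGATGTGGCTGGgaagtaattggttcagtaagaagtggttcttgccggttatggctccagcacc
Nr5a2 +6.5 kb, chr1:138850365-138850564: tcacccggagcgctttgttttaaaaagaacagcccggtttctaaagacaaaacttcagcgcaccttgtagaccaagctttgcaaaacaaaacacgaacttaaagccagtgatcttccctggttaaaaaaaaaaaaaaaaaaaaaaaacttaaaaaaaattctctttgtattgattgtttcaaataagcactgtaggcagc
Tfcp2l1 -2.3 kb, chr1:120522117-120522316: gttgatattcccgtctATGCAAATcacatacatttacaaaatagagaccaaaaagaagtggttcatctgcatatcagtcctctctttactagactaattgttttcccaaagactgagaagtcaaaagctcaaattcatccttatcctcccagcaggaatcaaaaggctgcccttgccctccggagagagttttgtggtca
Tbx3 -90.6 kb, chr5:120029951-120030150: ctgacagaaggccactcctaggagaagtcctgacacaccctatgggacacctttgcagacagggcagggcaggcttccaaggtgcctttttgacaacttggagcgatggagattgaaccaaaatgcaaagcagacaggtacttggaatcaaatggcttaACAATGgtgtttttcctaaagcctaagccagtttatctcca
Tbx3 -85.5 kb, chr5:120035060-120035259: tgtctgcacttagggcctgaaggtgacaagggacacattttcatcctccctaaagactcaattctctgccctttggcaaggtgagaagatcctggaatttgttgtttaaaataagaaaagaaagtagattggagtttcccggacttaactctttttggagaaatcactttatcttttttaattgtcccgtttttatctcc
Tbx3 +9.3 kb, chr5:120129851-120130050: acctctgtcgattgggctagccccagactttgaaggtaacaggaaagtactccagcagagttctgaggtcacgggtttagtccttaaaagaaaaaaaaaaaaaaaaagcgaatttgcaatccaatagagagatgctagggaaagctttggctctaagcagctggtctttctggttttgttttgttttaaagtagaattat

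Esrrb (ENSMUSG00000021255.10, chr12:87702067-87862578, plus strand) had 7 NANOG peaks, 3 MED12, 2 MED1 and 1 OCT4 peak, and 3 SIM2 sites. All 8 places lay in introns of the gene, over a stretch of 49.3 kb in its 3′ part. The first peak lay 94.1 kb downstream of the TSS, so that neither the 100 kb upstream nor the start of the gene held a peak of any list.

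The leading place of Esrrb was 140.7 kb downstream of the TSS, in intron 3 of the 6 introns of its longest transcript. NANOG reached a normalized tag count of 25.6 there, which put it in the top 1.97% of its list, and its fold over the input was 24.93. MED12 had a normalized tag count of 18.6 (top 2.05%) and MED1 of 12.7 (top 7.15%), the highest ranks of either list at the 4 genes except for 1 MED1 peak at Tbx3. SIM2 was called in A6 with a normalized tag count of 15.4 and a fold over the input of 10.16, and in B8 with 4.8 and 8.51. It was not called in C4 or EB3. The A6 peak ranked in the top 18.8% of its list and the B8 peak in the top 50.5% by tag count, or the top 6.62% by HOMER score.

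By the 100 bp rule for centres, OCT4 had a place of its own here. Its interval, chr12:87842397-87842583, nevertheless overlapped the MED1 peak of the shared place, which started at 87842575. It ended less than 100 bp before the start of the NANOG peak at 87842660, so the separation rests on measuring between centres. The OCT4 centre lay 253 bp from the centre of the NANOG peak, with a normalized tag count of 6.3, in the top 30.0% of the OCT4 list. This was the only OCT4 peak of Esrrb and, by centres, the only place among the 25 without a NANOG peak.

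A second place with 4 factors followed 2.71 kb further downstream in the same intron, 104 bp inside the annotated start of Esrrb-004, a transcript without a coding sequence. NANOG had a normalized tag count of 12.4 (top 15.4%), MED12 of 10.6 (top 10.7%) and MED1 of 10.2 (top 12.3%). SIM2 had 11.2 in A6 and 4.1 in B8, in the top 50.4% and 69.7% of these lists, so it was the weakest SIM2 site of Esrrb in both clones, by tag count and by score.

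The third SIM2 site of Esrrb lay 94.1 kb downstream of the TSS, in intron 1, and carried NANOG as the only other factor. NANOG again had a normalized tag count of 12.4, and SIM2 had 13.7 in A6 and 8.2 in B8. The B8 peak had the highest normalized tag count of that clone at the 4 genes (top 8.31%), though by score the one at 140.7 kb ranked above it. Its fold over the input was 9.79. SIM2 was thus called in both clones at places with and without Mediator within this gene.

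Of the other Esrrb places, the one at 105.2 kb had NANOG (5.4) and MED12 (5.3), both in the lower part of their lists. NANOG alone was found at 110.0 kb (9.3), which is 974 bp inside the start of the coding transcript Esrrb-005, and at 117.9 kb (3.1). At 137.9 kb NANOG (8.5) was joined by a SIM2 peak in B8 only, with a normalized tag count of 5.4.

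**Figure D1:**
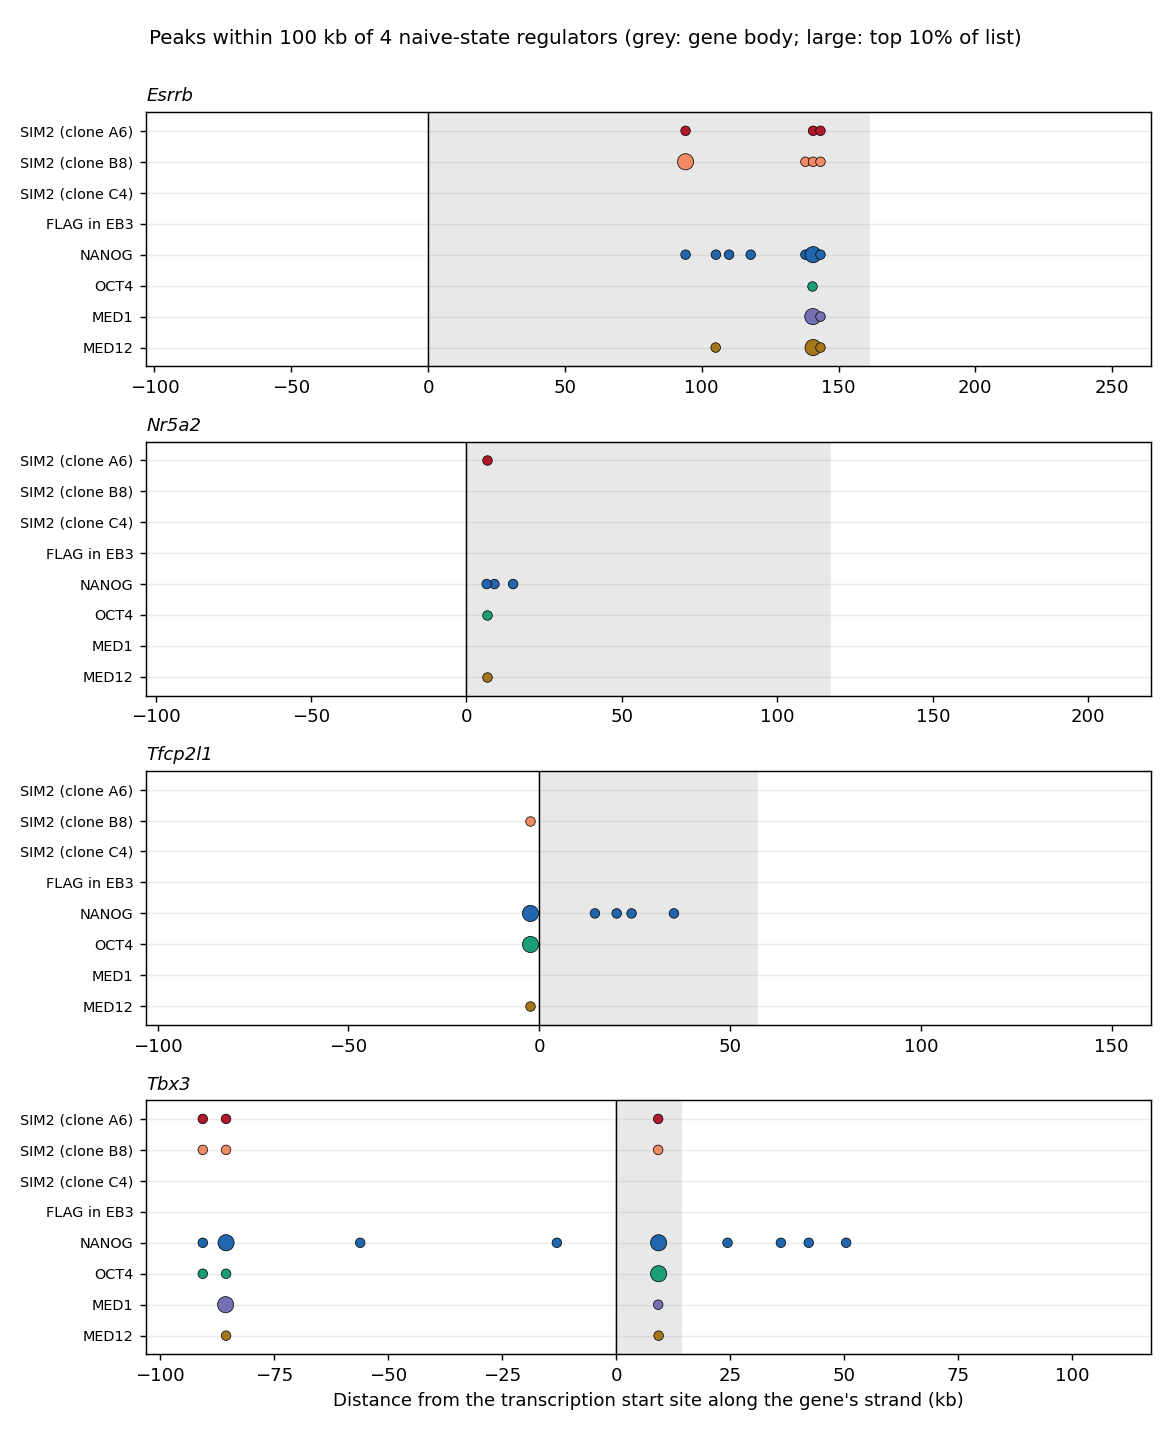
Position of the 56 peaks along each gene, as distance in kb from the 5′-most TSS, with 1 line per peak list. The grey area is the gene body and large points are peaks in the top 10% of their own list by normalized tag count. Peaks of Esrrb and Nr5a2 lay inside the gene body, Tfcp2l1 had its shared place 2.3 kb upstream, and Tbx3 had shared places 90.6 and 85.5 kb upstream and 9.3 kb downstream. The C4 and EB3 lines hold no point.

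Tbx3 (ENSMUSG00000018604.11, chr5:120120678-120134733, plus strand) had 9 NANOG peaks, 3 OCT4, 2 MED1 and 2 MED12 peaks, and 3 SIM2 sites. By the 100 bp rule for centres, it was the only gene of the 4 where all 5 factors met. They did so at 2 places, 94.8 kb apart, on either side of the TSS.

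The upstream place with all 5 factors lay 85.5 kb from the TSS, between genes. NANOG had a normalized tag count of 36.4, the highest at the 4 genes, in the top 0.415% of its list. MED1 had 13.3 (top 6.36%), MED12 10 (top 13.1%) and OCT4 6.0 (top 34.7%). SIM2 was called in A6 with 13.3 and in B8 with 4.1, and not in C4 or EB3. NANOG and Mediator were thus far up their lists, whereas the SIM2 peaks ranked in the top 29.8% and 69.7%.

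The place 9.3 kb downstream of the TSS lay in intron 5 of the 6 introns of its longest transcript, 308 bp before the annotated start of Tbx3-004, a transcript without a coding sequence. OCT4 had a normalized tag count of 13.0 (top 1.11%), its highest rank at the 4 genes, and NANOG had 24.0 (top 2.48%). MED12 had 8.0 (top 25.2%), but MED1 only 4.4 (top 78.1%), with a fold over the input of 4.71. SIM2 had 11.6 in A6 and 3.4 in B8, and the B8 peak, in the top 86.4% of its list, had the lowest normalized tag count of B8 at the 4 genes. By score, 13.0, it was level with 3 other B8 peaks.

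The third SIM2 site of Tbx3 lay 90.6 kb upstream of the TSS, 5.11 kb from the stronger upstream place, and had no Mediator peak. NANOG had a normalized tag count of 13.2 (top 13.6%) and OCT4 of 4.8 (top 62.9%). SIM2 had 13.3 in A6 and 6.8 in B8 (top 16.4%), so in B8 it was the strongest SIM2 site of this gene by tag count and by score.

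NANOG alone was found at the other 6 places of Tbx3, at 56.1 and 13.0 kb upstream and at 24.4, 36.1, 42.2 and 50.4 kb downstream. Their normalized tag counts ran from 2.3 to 7.0, all below those of the 3 shared places. The 2 upstream ones lay inside Gm2301, a noncoding gene, and the one at 13.0 kb also lay inside Gm16064, another noncoding gene.

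Tfcp2l1 (named Tcfcp2l1 in GENCODE vM1, ENSMUSG00000026380.9, chr1:120524522-120581744, plus strand) had 5 NANOG peaks, of which 1 was shared. This place lay 2.3 kb upstream of the TSS, the nearest to the 5′ end of a gene among the 25 places. NANOG had a normalized tag count of 34.8 (top 0.506%) and the highest fold over the input at the 4 genes, 47.02. OCT4 had 10.8 (top 3.57%) and MED12 6.7 (top 42.9%), and no MED1 peak was called. SIM2 was called in B8 only, with a normalized tag count of 6.8, so it did not count as a site. The other 4 NANOG peaks lay in introns, 14.6, 20.3, 24.2 and 35.3 kb downstream of the TSS, with normalized tag counts of 11.6, 6.2, 5.4 and 7.0.

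Nr5a2 (ENSMUSG00000026398.8, chr1:138740161-138857004, minus strand) had 3 NANOG peaks, the fewest of the 4 genes, within 8.44 kb of each other. The shared place lay 6.5 kb downstream of the TSS, in intron 1 of the longer transcript and 256 bp before the start of the shorter coding transcript Nr5a2-202. NANOG had a normalized tag count of 13.9 there (top 12.0%), MED12 7.3 (top 33.5%) and OCT4 4.8 (top 62.9%). SIM2 was called in A6 only, with a normalized tag count of 12.4. The 2 other NANOG peaks, 9.0 and 15.0 kb downstream, had 4.6 and 2.3, in the top 74.2% and 98.8% of the list.

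None of the 25 places lay within 1 kb of the 5′-most TSS of its gene, and 4 lay within 1 kb of the start of some transcript. The nearest start of a protein-coding gene was that of Esrrb, Nr5a2, Tfcp2l1 or Tbx3 itself at 25 of 25 places. In all, 16 places were intronic and none was exonic. These counts depend on the rule, which took only peaks in these genes or within 100 kb of them. The same shares over all peaks were not computed, so the counts do not show a link to these genes.

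**Figure D2:**
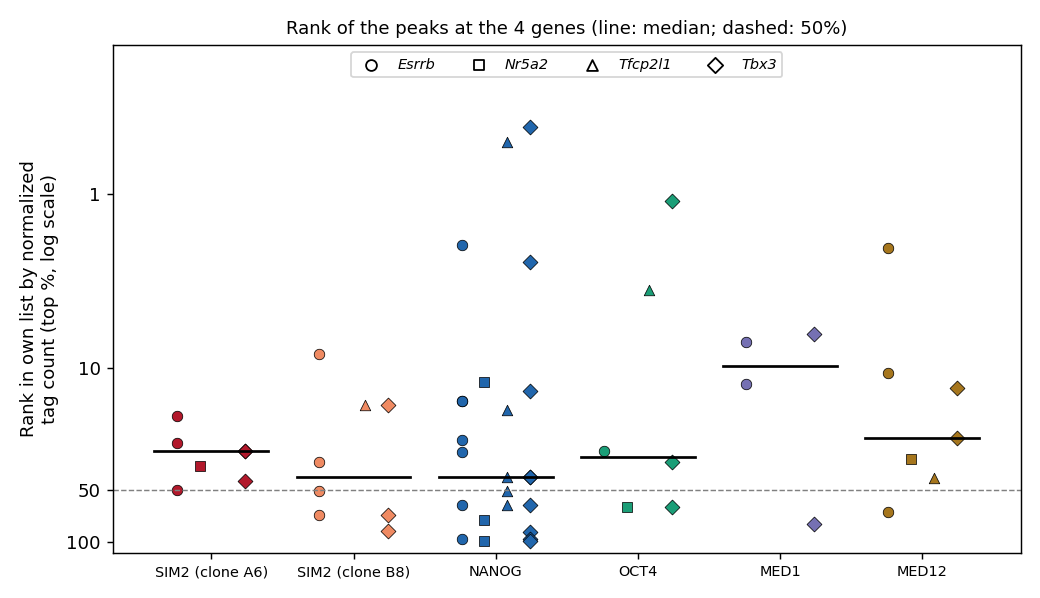
Rank of each peak at the 4 genes within its own list by normalized tag count, as a top percentage on a log scale, with symbols for genes and equal ranks drawn over each other. Black lines are medians, at 29.8% in A6, 42.5% in B8, 42.0% for NANOG, 32.4% for OCT4, 9.73% for MED1 and 25.2% for MED12, and the dashed line is at 50%.

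Ranks were used because the normalized tag counts of different lists are not on 1 scale, the ratio of tag count, in steps of 1 tag, to score being 0.970 in A6 and 0.997 in EB3 but 0.500 to 0.504 in the lists of B8, C4, NANOG, OCT4, MED1 and MED12. Ranked by score, the medians were 32.4% in A6, 38.1% in B8, 37.8% for NANOG, 15.8% for OCT4, 16.3% for MED1 and 15.0% for MED12. The NANOG peaks at the 4 genes spanned nearly the whole list, from the top 0.415% to the top 98.8%. Their median normalized tag count was 7.0, against 6.2 over all 14815 NANOG peaks.

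SIM2 was present at the 4 genes in A6 (7 peaks) and B8 (8 peaks), whereas C4 had 0 of its 631 peaks there and EB3 0 of its 81. All 6 SIM2 sites were those of A6 and B8, 3 at Esrrb and 3 at Tbx3, and another 3 places had a peak in 1 clone. Over the genome 32.5% of the 1229 SIM2 sites had a peak in C4, and the exact 95% interval for 0 of 6 sites ran up to 45.9%, so an absence of C4 from these genes could not be told from the rate over the genome. Presence in C4 moved with the A6 tag count. The 6 sites had A6 normalized tag counts of 11.2 to 15.4, and among all 483 A6 peaks at SIM2 sites in that range, 19.3% had a C4 peak within 100 bp, against 66.0% of the 391 above it.

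The HOMER score ran from 26.0 to 36.0 in the 7 A6 peaks and from 13.0 to 24.0 in the 8 B8 peaks. If the score is taken as a tag count, which the lists do not state and which their normalized tag counts do not match in B8, a score of 13.0 has an exact 95% Poisson interval of 6.92 to 22.2 and one of 36.0 an interval of 25.2 to 49.8, for counting error only. The fold over the input ran from 7.34 to 10.16 in A6 and from 5.11 to 9.79 in B8.

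Of the 24 NANOG peaks at the 4 genes, 6 had a SIM2 site within 100 bp, or 25% (95% Wilson interval 12.0 to 44.9%), against 5.93% of all NANOG peaks. For MED12 the count was 7, or 29.2% (14.9 to 49.2%), against 5.08%, and for MED1 it was 4, or 16.7% (6.68 to 35.9%), against 1.96%. For OCT4 it was 5, or 20.8% (9.24 to 40.5%), and the background of 15.1% lay within that interval. All SIM2 sites and all MED1 peaks among these lay at Esrrb and Tbx3. Peaks around 1 gene are not independent of each other, so these intervals are too narrow. They therefore cannot set any of the 4 shares apart from its background, and no test was made.

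At least 2 of SIM2, OCT4, MED1 and MED12 were found at 7 of the 24 NANOG peaks (29.2%), against 6.09% of all NANOG peaks, and at least 3 at 4 of them (16.7%), against 1.92%. With only peaks of at least 8 times the input, the count of 7 fell to 1, so it rested on peaks below that fold. The cut-off lay above the median fold of every list, from 4.71 (MED1) to 7.15 (A6). The share over all NANOG peaks was not recomputed with it, so the fall cannot be read as particular to these genes. None of the 4 was found at 15 (62.5%, interval 42.7 to 78.8%), against 80.4%. With all peaks, each gene had at least 1 place with NANOG and 2 other factors: 2 at Esrrb, 3 at Tbx3 and 1 each at Nr5a2 and Tfcp2l1. The combination differed between the genes. Esrrb joined NANOG, SIM2 and both Mediator subunits without an OCT4 centre within 100 bp. At its leading place this contrast rests on centres, since the OCT4 interval there overlapped that of MED1. Nr5a2 and Tfcp2l1 joined NANOG, OCT4 and MED12 without MED1, and each also had a SIM2 peak in 1 clone, which did not count as a site. Tbx3 had all 5 factors at 2 of its 3 places and NANOG, SIM2 and OCT4 without Mediator at the remaining one.

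Seen from the other factors, NANOG was within 100 bp of 6 of 6 SIM2 sites, 4 of 4 MED1 peaks, 7 of 7 MED12 peaks and 5 of 6 OCT4 peaks at these genes. The shares over the genome were 71.4% of SIM2 sites, 38.1% of MED1 peaks, 70.2% of MED12 peaks and 88.2% of OCT4 peaks. Counts of 4 to 7 peaks are too small to be set apart from most of these shares, and no test was made.

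**Figure D3:**
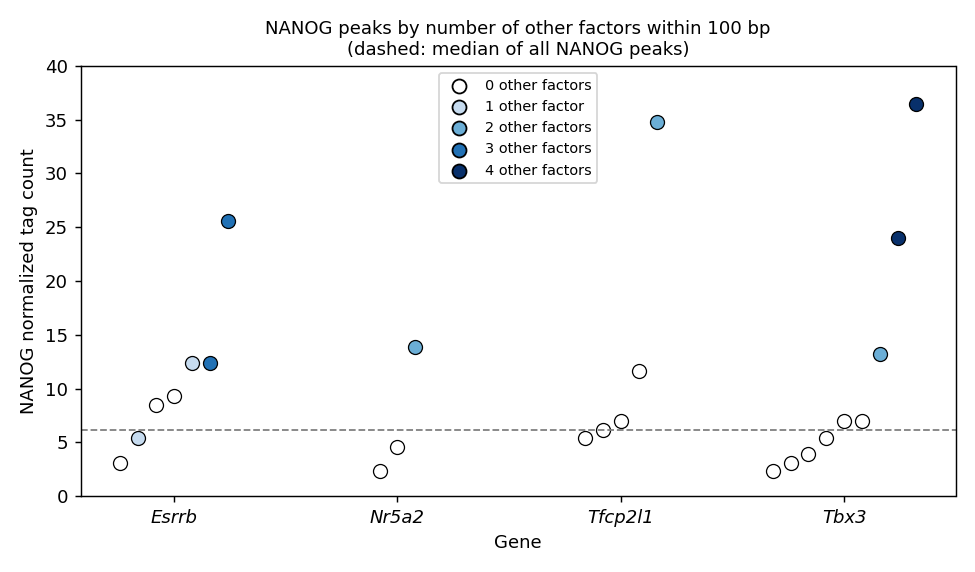
NANOG normalized tag count of each of the 24 NANOG peaks, by gene, with the fill showing how many of SIM2 (sites in at least 2 clones), OCT4, MED1 and MED12 lay within 100 bp. The dashed line is the median of all NANOG peaks, 6.2. The 7 peaks with at least 2 other factors had 12.4 to 36.4, and the 15 peaks with none had 2.3 to 11.6.

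NANOG peaks shared with several factors were among the stronger ones. The 7 NANOG peaks with at least 2 other factors had normalized tag counts of 12.4 to 36.4 (median 24.0), and the 15 with none had 2.3 to 11.6 (median 5.4), so these groups did not overlap. With the 2 peaks that had exactly 1 other factor, at 5.4 and 12.4, the shared peaks started at 5.4 and overlapped those with none. In the whole list the medians were 16.3 for 902 peaks and 5.4 for 11916 peaks. There the groups did overlap, since 6.95% of the NANOG peaks without any of the other factors reached 12.4 and 26.6% of those with at least 2 stayed below it.

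**Figure D4:**
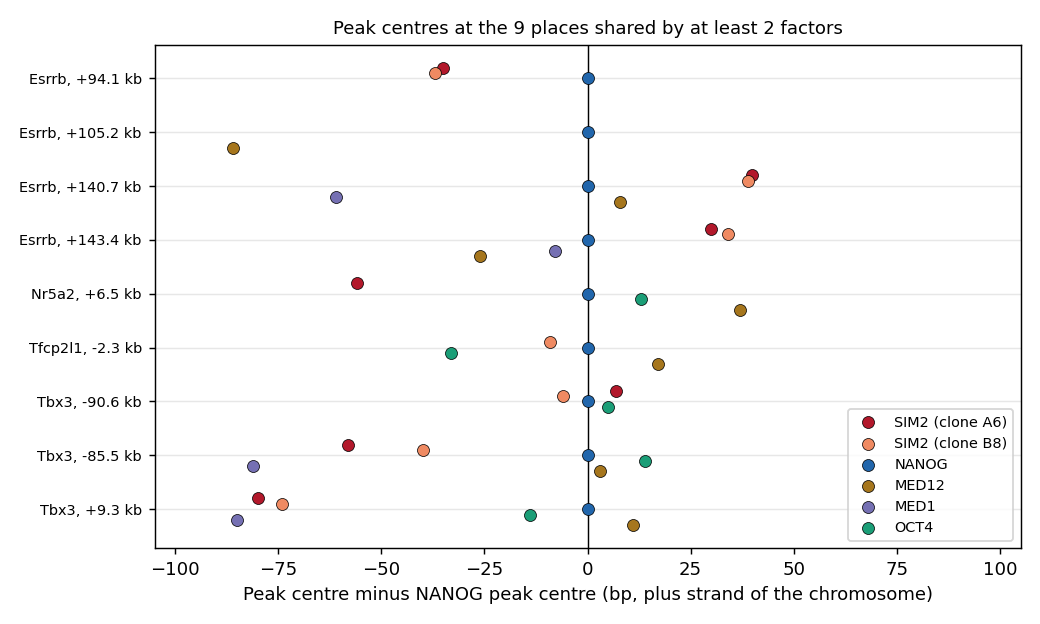
Centre of each peak relative to the NANOG peak centre, in bp along the plus strand of the chromosome, at the 9 places shared by at least 2 factors. OCT4 centres lay 5 to 33 bp from NANOG, while SIM2, MED1 and MED12 centres lay up to 80, 85 and 86 bp away.

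At 5 places the OCT4 and NANOG centres were 5 to 33 bp apart (median 14.0 bp), against a median of 24.0 bp for all pairs within 100 bp in the genome. MED12 centres were 3 to 86 bp away (median 17 bp, 7 places), against 36.5 bp in the genome, and MED1 centres 8 to 85 bp (median 71 bp, 4 places), against 37 bp. The SIM2 centres of A6 were 7 to 80 bp from NANOG (median 40 bp, 7 places), and those of B8 were 6 to 74 bp away (median 38.0 bp, 8 places), against 30 and 31 bp in the genome. The orders of these medians thus differed between the 4 genes and the genome. At the Tbx3 place in intron 5, SIM2 lay 80 bp (A6) and 74 bp (B8) from NANOG on the side of the TSS, with MED1 85 bp away on the same side, while OCT4 and MED12 were 14 and 11 bp from NANOG. At the Esrrb place at 140.7 kb SIM2 lay 40 and 39 bp to the 3′ side of NANOG and MED1 61 bp to the 5′ side. At 5 of the 6 sites the A6 and B8 centres lay on the same side of NANOG as each other, but that side differed between sites. At the Tbx3 site 90.6 kb upstream the centres were 7 and 6 bp from NANOG on opposite sides. The peaks are 152 to 216 bp wide, so such distances are short against the width of a peak.

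The motifs searched in the 200 bp around the centre of each place were the octamer ATGCNAAT, a SOX site CATTGT, the ESRRB site TCAAGGTCA, the NR5A2 site TCAAGGCCA, a KLF site GGGTGTGG, a T-box site AGGTGTGA, the ACGTG core that bHLH-PAS dimers bind, and the TFCP2L1 motif. An exact match on either strand was required. No 2 of these patterns contain each other, but those used for ESRRB and NR5A2 differ by a single base. A match to either therefore does not tell these receptors apart.

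The ESRRB site was found at 3 of the 25 places, 2 of them the places with 4 factors in Esrrb itself, at 140.7 and 143.4 kb, and 1 at the NANOG peak 35.3 kb downstream of the TSS of Tfcp2l1. Over the genome 2.47% of the NANOG peaks and 2.93% of the SIM2 sites held it. The second Esrrb place also had a TFCP2L1 motif, found in 2 of the 25 places and in 2.27% of all NANOG peaks, and a SOX site. In the sequences shown above these are the capitals of Esrrb +140.7 kb and Esrrb +143.4 kb.

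The octamer was found at 3 of the 25 places, including the shared place of Tfcp2l1, where it lay 80 bp to the left of the centre, against 12.6% of all NANOG peaks. The SOX site was found at 6 places, against 21.7%, and the KLF site at 2, against 3.74%. No place matched TCAAGGCCA, the only pattern searched for NR5A2 (1.11% of all NANOG peaks), or the T-box pattern (1.23%). The ACGTG core was found at 1 place, with NANOG alone in Esrrb, and at none of the 6 SIM2 sites, against 14.1% of all 1229 SIM2 sites and 5.41% of all NANOG peaks. These counts were not tested, and a pattern that is not matched here may still be present in a form that differs from it.

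Set beside other genes, 4 of 4 had a NANOG peak within 100 kb, which 67.7% of the 22350 protein-coding genes on chromosomes 1 to 19 and X also had. For OCT4 the counts were 4 of 4 against 21.8%, for MED12 4 of 4 against 10.9%, and for MED1 2 of 4 against 7.98%. A SIM2 site was found at 2 of 4, against 13.4%, and these 2, Esrrb and Tbx3, each had at least 3, which 0.34% of the protein-coding genes had. A NANOG peak with at least 2 other factors was found at 4 of 4 genes, against 9.83%.

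The windows differ in length, from 214 kb for Tbx3 to 361 kb for Esrrb, and the median window of protein-coding genes was 215 kb. Per 100 kb, Tbx3 had 4.2 NANOG peaks, a density that 0.224% of the protein-coding genes exceeded. Esrrb and Tfcp2l1 both had 1.94, exceeded by 7.02% and 6.98%, and Nr5a2 had 0.947, exceeded by 28.8%. The median gene had 0.482.

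In the same windows, all of 16 further genes of the pluripotency network had a NANOG peak, 13 an OCT4 peak, 12 a MED12 peak, 9 a MED1 peak and 9 a SIM2 site, and their median NANOG density was 1.95 per 100 kb. A NANOG peak with at least 2 of the other 4 factors was found at 12 of the 16. At least 3 SIM2 sites were found at Sox2, Klf4 and Klf5. Neighbouring genes of the list, such as Nanog and Dppa3, can count the same peak. Klf5, a Krüppel-like factor of the same network, had 14 NANOG peaks, and Nanog itself had 9, as many as Tbx3.

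The paralogues of the 4 genes belong to the same families. Of 11, 8 had a NANOG peak, 4 an OCT4 peak, 2 a MED12 peak, none a MED1 peak and 2 a SIM2 site. A NANOG peak with at least 2 of the other 4 factors was found at 2 of the paralogues, Tfcp2 and Grhl2. Their median NANOG density was 0.901 per 100 kb. Esrrg, whose window of 806 kb is the longest, had 5 NANOG peaks and no peak of another factor, and Ubp1, Grhl1 and Tbx5 had none of the 5 factors. Grhl2, a grainyhead factor of epithelial cells, had 7 NANOG peaks and 3 SIM2 sites. At 2.12 per 100 kb, the NANOG density of Grhl2 was above those of Esrrb, Tfcp2l1 and Nr5a2. Grhl3 and Tfcp2 had 4 NANOG peaks each, a density of 1.73 and 1.61 per 100 kb, and Tfcp2 had 1 SIM2 site. These 2 densities and those of Tbx4 (1.31) and Tbx2 (0.955) were also above that of Nr5a2 (0.947). The remaining paralogues were below it.

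**Figure D5:**
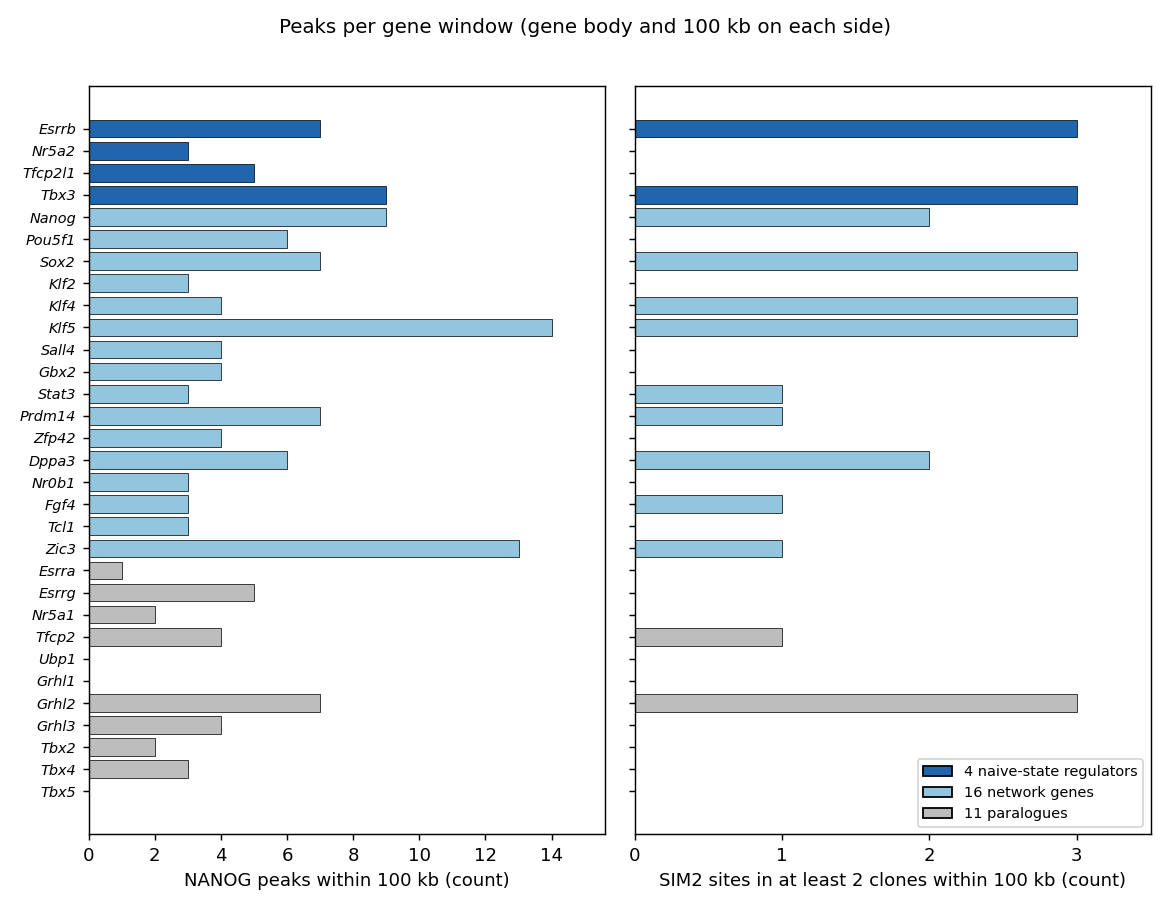
Number of NANOG peaks (left) and of SIM2 sites in at least 2 clones (right) in the window of each gene, for the 4 naive-state regulators, 16 network genes and 11 paralogues. Tbx3 had 9 and Esrrb 7 NANOG peaks with 3 SIM2 sites each, and Nr5a2 and Tfcp2l1 had 3 and 5 NANOG peaks with no SIM2 site.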

How the data were processed

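Reads had been aligned by the authors to mm9 with BWA and stripped of duplicates, and HOMER had been used to call peaks of every ChIP library against an input. Deposited normalized tag counts are a signal on a scale set by library size. The score was given to each peak by the authors' peak caller and is a whole number. The deposited fold over the input is a ratio. If tag counts were scaled to 10 M tags, HOMER's default, their equal steps correspond to 12.9 M (NANOG) to 31.6 M (OCT4) tags per library.

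Peak lists were read as deposited, genes were taken from GENCODE vM1, and sequences came from the NCBIM37 genome, which is mm9. Centres within 100 bp of each other made 1 place. Distances between peaks were taken between centres throughout, whereas the study overlapped features with a 100 bp window. SIM2 sites needed at least 2 clones and no EB3 centre within 100 bp. Ranks are within a list, with ties given their mean. Intervals have a level of 95% and cover counting error only. No test between groups was made, since each factor has 1 library. The places named were the SIM2 sites, those with OCT4 or Mediator, the strongest NANOG peak of each gene and places within 1 kb of a TSS. The members, the network and paralogue lists and the motifs were chosen with earlier results of these data known. Inputs were not analysed here beyond the fold in the lists, and other columns of the lists were not used.

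Alternatives covered the window, the distance, the fold over the input, the transcripts, the clones and the EB3 filter. Python 3.11.15, numpy 2.4.6, pandas 2.3.3, scipy 1.17.1, pysam 0.24.0, samtools 1.23.1 and matplotlib 3.10.9 were used, and the steps were tested on simulated data.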

Additional observations from a re-analysis of the deposited data

How the results depend on the processing

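Of 48 values recomputed for the 5 counts and shares, 39 kept their size, counts within 1.5 times and shares within their 95% interval, and 9 moved. Leaving out clone C4 or the EB3 filter could change no value, since neither list has a peak at these genes. The intervals of the shares are wide, so few shares could move. With only peaks of at least 8 times the input, the NANOG peaks fell from 24 to 13, the SIM2 sites from 6 to 2 and the places with NANOG and at least 2 other factors from 7 to 1, since fewer peaks remained in every list. Without clone A6 or without clone B8 no SIM2 site was left (0 to 6 sites over the 3 clones left out in turn, and 0 to 25% of the NANOG peaks), and sites in all 3 clones were 0, or 0.0% of the NANOG peaks. With 1 clone enough there were 9 sites. Windows of 50 and 20 kb left 21 and 18 NANOG peaks, and 4 SIM2 sites each, since 2 sites of Tbx3 lie over 50 kb upstream. Joining peaks over 300 bp, chosen after seeing the data, added the OCT4 peak of Esrrb and gave 25% of the NANOG peaks with OCT4. Ranking by score, also chosen after seeing the data, moved no median rank by more than the spread of its peaks. No paired analysis was possible because no result comes from a test, and the pairing of each ChIP with its input enters only through the deposited fold. By the sample titles, NANOG and OCT4 shared an input, and MED1 and MED12 shared another.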
